A study of Mus musculus with 12 samples.

Results

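Microglia, the resident macrophages of the brain tissue, and the macrophages that line its borders can be followed in bulk hippocampal RNA through genes that they express, some of which both populations share. A set of 36 such genes was followed here, 30 that mark microglia and 6 that mark macrophages of the meninges, perivascular spaces and choroid plexus (Mrc1, Cd163, Pf4, Lyve1, F13a1 and Ms4a7). The set was a list of gene names matched to the identifiers in the count files, out of 55421 genes listed. All 36 genes had more than 20 counts over the 12 libraries, as did 22592 genes in all. The study asked whether a short course of Nutlin-3, an inhibitor of the binding of MDM2 to p53, has lasting effects on the hippocampus of mice that lack the fragile X gene Fmr1. RNA came from the hippocampus of single mice at 6 months of age, 4 months after injections at 2 months, with 3 mice in each of 4 groups. WT-Veh and WT-Nut3 were Wild type mice given vehicle or Nutlin-3, and KO-Veh and KO-Nut3 were Fmr1-KO mice given vehicle or Nutlin-3. By the study's methods the dose was 10 mg/kg in 5 injections, of Nutlin-3 dissolved in DMSO. The labels name no promoter or Cre for the knockout. The study's methods describe mice of the C57BL/6 background and, for part of the work, KO mice with a Nestin-GFP transgene, which the labels of these libraries do not mention. In bulk tissue, fewer cells of a type and less RNA per cell cannot be told apart.

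Microglia arise from the yolk sac, settle in the brain before birth and renew themselves there. They depend on signals through the receptor CSF1R and on the transcription factor PU.1, encoded by Spi1. In the healthy brain they carry purinergic and chemokine receptors at their surface, through which they sense nucleotides and the neuronal chemokine fractalkine, and they engulf debris through receptors that signal by way of the adaptor proteins Tyrobp and Fcer1g. Border macrophages share CSF1R and PU.1 but sit in the meninges, around vessels and in the choroid plexus, and carry the mannose receptor (Mrc1) and the haemoglobin scavenger receptor (Cd163).

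PU.1 binds purine-rich DNA with the core GAGGAAG, and the promoters below are shown because the set holds both Spi1 and genes of the lineage that it directs. RefSeq promoters (GRCm38.p6) were found for 26 of the 36 genes. The letters GAGGAAG stood on either strand within the 250 bases before the start site in 9 of these 26 (P2ry13, Fcrls, Trem2, Fcgr3, Itgam, Laptm5, Mrc1, Pf4 and F13a1), against 12.004% of the 27025 genes with a promoter of the same length. The longer GAGGAAGT, which contains it, stood in 1 of 26 (Pf4) against 2.79% of all genes, and GGAAGT, which overlaps both, in 10 of 26 against 22.2%. The 4 most abundant genes with a match were Laptm5, Fcrls, Trem2 and P2ry13; Mrc1 and Pf4 were added after their values were seen. Stretches are written 5′ to 3′ on the strand of the gene, with GAGGAAG or its reverse complement in capitals. For Laptm5 and Fcrls only 29 bases are shown because some annotated transcripts start further upstream, so that part of the stretch is exonic. The P2ry13 stretch lies within an intron of Med12l on the opposite strand, and the others lie outside annotated transcripts.
Laptm5, chr4:130913266-130913294, plus strand: gcagcctgtggCTTCCTCttttttgttct
Fcrls, chr3:87263651-87263679, minus strand: aagtctgtaaaGAGGAAGgacgtttgctt
Trem2, chr17:48346301-48346400, plus strand: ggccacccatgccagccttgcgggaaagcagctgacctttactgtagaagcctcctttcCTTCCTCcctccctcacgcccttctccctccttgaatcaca
P2ry13, chr3:59210883-59210982, minus strand: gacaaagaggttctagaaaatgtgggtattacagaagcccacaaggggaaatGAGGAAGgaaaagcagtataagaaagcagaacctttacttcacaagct
Mrc1, chr2:14229200-14229299, plus strand: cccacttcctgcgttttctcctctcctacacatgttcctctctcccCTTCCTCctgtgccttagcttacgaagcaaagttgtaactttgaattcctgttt
Pf4, chr5:90772335-90772434, plus strand: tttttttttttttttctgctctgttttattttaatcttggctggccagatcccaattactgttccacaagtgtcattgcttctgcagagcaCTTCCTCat
The matches are descriptions of letters in these windows, not of binding.

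Between 17150820 and 20040482 reads fell on genes in each library. Levels below are CPM, the count of a gene per 1000000 reads on genes, scaled by the trimmed mean of M-values (TMM). Fmr1 transcript averaged 77.5 ± 2.11 CPM in WT-Veh and 75.8 ± 2.26 in WT-Nut3 (SD, n = 3 in this and every group), against 34.2 ± 2.72 in KO-Veh and 31.6 ± 3.71 in KO-Nut3, so every KO library was below every WT library. Some Fmr1 transcript was thus still counted in the KO mice. Markers of hippocampal neurons (Snap25, Slc17a7, Rbfox3 and 6 others) were abundant in all libraries, and their summed level ran from 3281 to 4591 CPM. All 15 genes chosen as defining markers of microglia were detected in each library.

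Summed over the 30 microglia genes, little separated the mice. Their summed level lay between 528 CPM (WT-Nut3 RH9) and 607 CPM (WT-Veh RH15), a ratio of 1.15 over 12 mice. It averaged 582 ± 24.1 CPM in WT-Veh and 562 ± 31.1 in WT-Nut3, beside 565 ± 34.5 for KO-Veh and 560 ± 23.3 for KO-Nut3, with the libraries of all 4 groups overlapping. Per kilobase of exon, the most abundant transcripts were those of the lysosomal proteases cathepsin S (Ctss, 38.3 CPM per kb) and legumain (Lgmn, 32.6 CPM per kb), ahead of Csf1r (14.8), P2ry12 (12.2), Tyrobp (11.7) and Cx3cr1 (9.90). At the low end stood the Toll-like receptors Tlr7 (0.684 CPM per kb), Tlr2 (0.358) and Tlr4 (0.291). The border macrophage genes ran from 0.794 CPM per kb for Pf4 through 0.556 for Mrc1, 0.362 for Cd163, 0.255 for F13a1 and 0.232 for Lyve1 to 0.0979 for Ms4a7. All but Pf4 were thus below Tlr7. Counts for Itgam are uncertain, because 68.7% of its exon bases also belong to the overlapping gene Gm49368, and 15.1% of those of Csf1r belong to Hmgxb3.

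Among the surface receptors and transporters, the fractalkine receptor Cx3cr1 was the most abundant by CPM. Its level was 49.7, 47.5 and 52.2 CPM in WT-Veh RH2, RH5 and RH15, and 49.9, 39.8 and 47.2 in WT-Nut3 RH1, RH9 and RH14. In KO-Veh RH7, RH10 and RH16 it was 42.7, 35.1 and 48.8, and in KO-Nut3 RH6, RH8 and RH13 it was 35.2, 44.7 and 42.2. The 3 WT-Veh libraries were thus among the higher ones, but KO-Veh RH16 and WT-Nut3 RH1 lay within their range. The other 9 genes of this group were the nucleotide receptors P2ry12 and P2ry13, the lysophosphatidylserine receptor Gpr34, the microglia marker Tmem119, the lectin Siglech, the Fc receptor-like Fcrls, the selectin ligand Selplg, the fructose transporter Slc2a5 and the secreted protein Olfml3. Their coefficients of variation (CV, the SD as a share of the mean) over the 12 libraries ran with that of Cx3cr1 from 8.82% to 18.3%.

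Of the transcription factors, Sall1, which maintains microglial identity, was the most abundant. It measured 23.3, 25.7 and 26.7 CPM in WT-Veh and 27.5, 21.4 and 29.05 in WT-Nut3, beside 26.6, 22.04 and 24.3 for KO-Veh and 25.9, 23.1 and 24.4 for KO-Nut3, in the same order of mice as above. No group stood apart. Spi1 averaged 3.45 CPM and Irf8, an interferon regulatory factor needed for macrophage development, 5.61 CPM.

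Csf1r carried the largest share of the growth factor and ITAM receptor group, with 90.1, 87.9 and 98.0 CPM in WT-Veh and 87.6, 78.5 and 86.7 in WT-Nut3. In the KO mice it was 88.1, 77.0 and 89.8 CPM with vehicle and 72.2, 85.5 and 84.8 with Nutlin-3. The ranges of the KO groups and WT-Nut3 overlapped. Tyrobp, the adaptor of Trem2, was the steadiest gene of all 36, with a CV of 6.24%. That was below the 8.35% that counting error alone would give at its depth.

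Ly86, a partner of the Toll-like receptor homologue Cd180, was the most abundant of the innate pattern receptors and adhesion genes. It lay at 6.99, 7.51 and 7.42 CPM in WT-Veh and 6.999, 6.21 and 8.19 in WT-Nut3, beside 5.78, 7.84 and 8.37 for KO-Veh and 8.26, 6.93 and 7.08 for KO-Nut3. The 4 groups overlapped throughout. Tlr4, the receptor for bacterial lipopolysaccharide, and Tlr2, the receptor for bacterial lipopeptides, were the most variable microglia genes, with CVs of 34.3% and 33.3%.

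Lgmn led the lysosome, phagocytosis and cytoskeleton genes by CPM. It measured 77.6, 71.7 and 78.7 in WT-Veh and 78.5, 74.5 and 75.4 in WT-Nut3, beside 66.9, 68.0 and 69.1 for KO-Veh and 97.7, 72.0 and 79.2 for KO-Nut3. All KO-Veh libraries were below all others, and KO-Nut3 RH6 was the highest. The actin-binding Aif1 (Iba1), whose protein is widely used to stain microglia, was low in RNA at 3.44 CPM, with 5.38 CPM in WT-Nut3 RH14 and 5.13 in KO-Veh RH16 and no other library above 3.51.

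**Figure D1:**
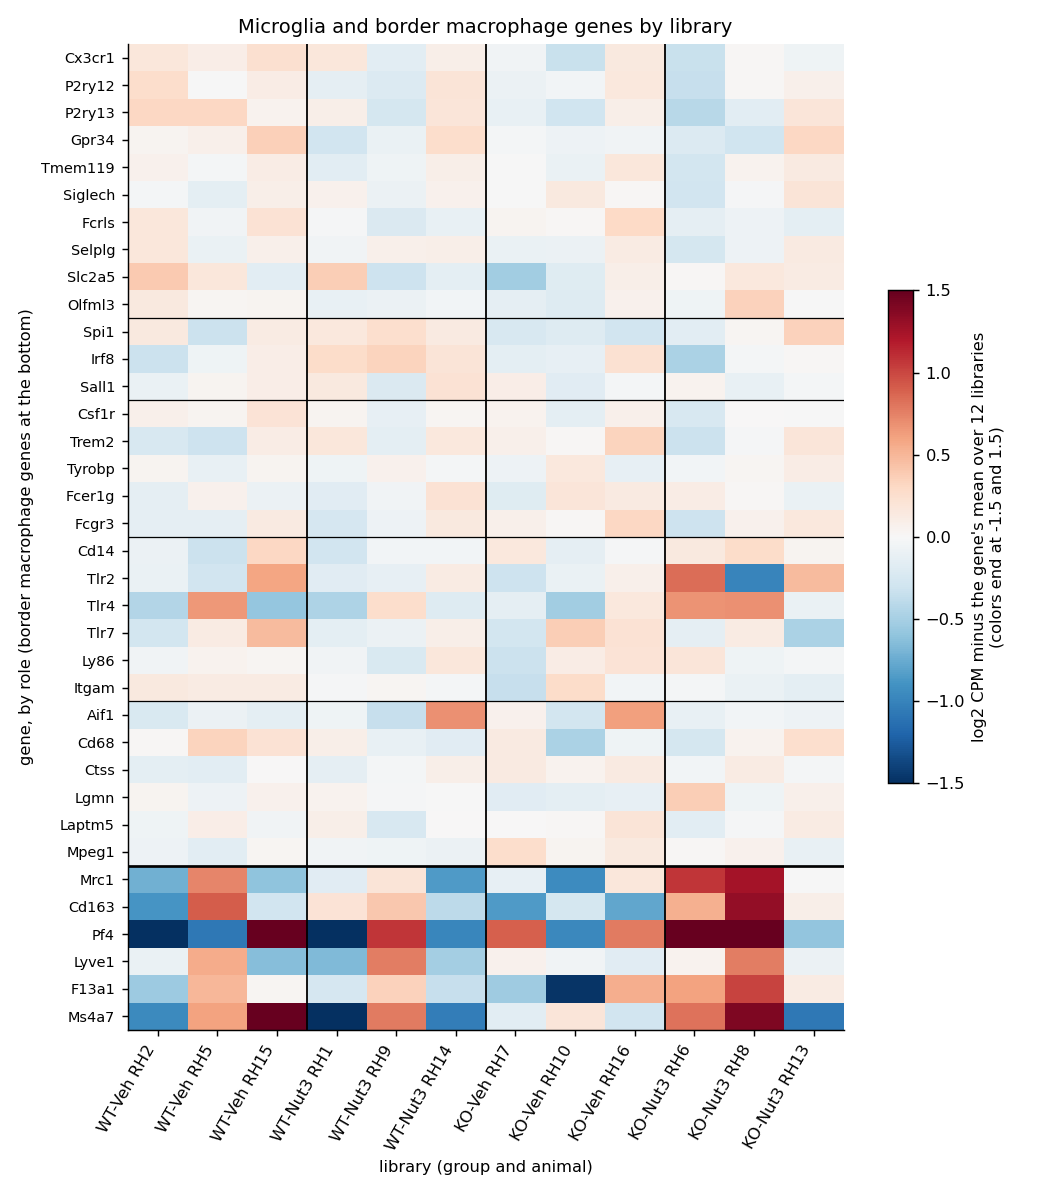
Heat map of log2 CPM of the 36 genes (rows, by role) in the 12 libraries (columns, by group and animal), each gene minus its own mean over the libraries, on a diverging color scale. The 30 microglia rows are mostly pale, with Tlr2, Tlr4 and Aif1 the most variable, while the 6 border macrophage rows at the bottom vary more from mouse to mouse, with KO-Nut3 RH8 the highest for Mrc1, Cd163 and F13a1 and WT-Veh RH15 for Pf4 and Ms4a7.

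The border macrophage genes varied far more between mice than the microglia genes. Their median CV was 53.5%, against 11.5% for the 30 microglia genes and 16.7% for all genes tested. Counting error alone would give a median CV of 23.0% for them and 7.40% for the microglia genes. The 8 microglia genes with under 100 counts per library had a median CV of 19.0%, where counting error would give 13.3%. Mrc1 (65.2 counts per library) had a CV of 54.0%, and Spi1 (63.7 counts) one of 15.6%. F13a1 (31.6 counts, CV 41.9%) and Tlr4 (29.8 counts, CV 34.3%) lay closer to each other.

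**Figure D2:**
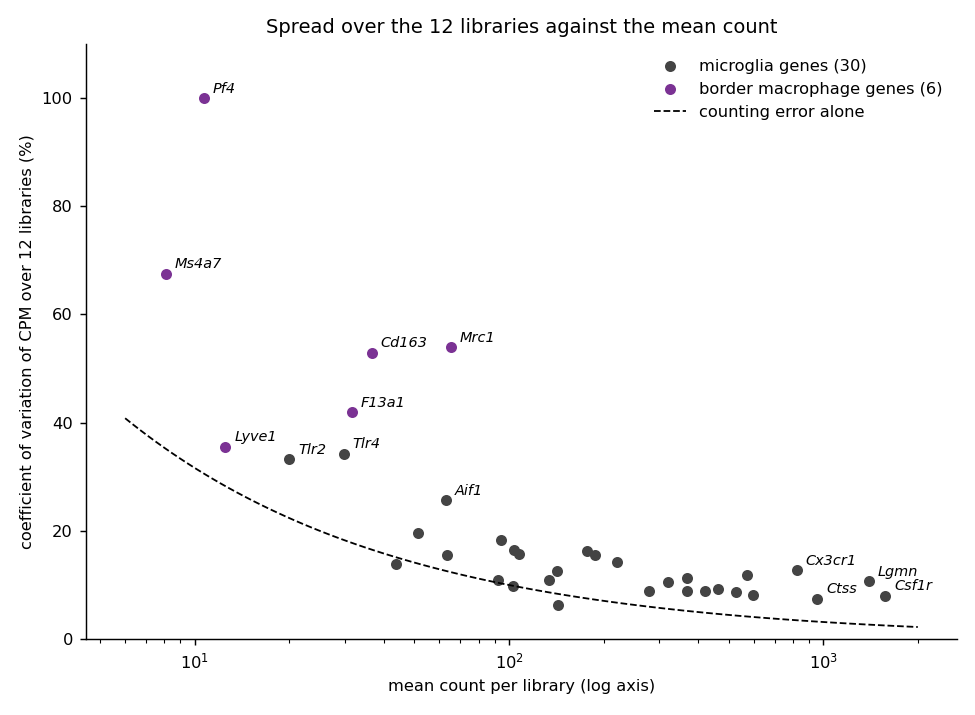
Coefficient of variation of CPM over the 12 libraries (y axis, percent) against the mean count per library (x axis, log scale) for the 36 genes, with the value that counting error alone would give as a dashed line. Pf4, Ms4a7, Mrc1, Cd163 and F13a1 lie well above the line and above the microglia genes, while Lyve1 (35.6%) lies nearer to it.

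Mrc1 (chromosome 2, 14229392 to 14332057, plus strand), the mannose receptor, was the most abundant of the 6. It measured 1.91, 5.20 and 2.06 CPM in WT-Veh RH2, RH5 and RH15 and 2.79, 3.58 and 1.74 in WT-Nut3 RH1, RH9 and RH14. In the KO mice it was 2.89, 1.63 and 3.53 in KO-Veh RH7, RH10 and RH16, and 6.60, 7.45 and 3.13 in KO-Nut3 RH6, RH8 and RH13. KO-Nut3 RH6 and RH8 were the highest of the 12, and KO-Nut3 RH13 lay within the range of KO-Veh.

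Cd163 (chromosome 6, 124304656 to 124330527, plus strand), which takes up haemoglobin bound to haptoglobin, followed much the same mice. Its levels were 0.955, 3.31 and 1.44 CPM in WT-Veh and 2.03, 2.33 and 1.35 in WT-Nut3, beside 0.981, 1.47 and 1.03 for KO-Veh and 2.55, 4.41 and 1.87 for KO-Nut3. The KO-Nut3 mice all lay above the KO-Veh mice, but WT-Veh RH5, WT-Nut3 RH1 and WT-Nut3 RH9 lay within the KO-Nut3 range. F13a1 (chromosome 13, 36867178 to 37050244, minus strand), the A subunit of coagulation factor XIII, gave 1.07, 2.21 and 1.597 CPM in WT-Veh and 1.32, 1.99 and 1.23 in WT-Nut3. It gave 1.08, 0.564 and 2.28 in KO-Veh and 2.38, 3.15 and 1.70 in KO-Nut3, so that KO-Veh RH16 overlapped the KO-Nut3 range. Lyve1 (chromosome 7, 110850607 to 110863239, minus strand), a hyaluronan receptor of perivascular macrophages and lymphatic vessels, was the steadiest of the 6, from 0.406 CPM in WT-Nut3 RH1 to 1.09 in WT-Nut3 RH9 and KO-Nut3 RH8. Its libraries were 0.597, 0.946 and 0.412 in WT-Veh and 0.406, 1.09 and 0.449 in WT-Nut3, beside 0.671, 0.620 and 0.570 for KO-Veh and 0.666, 1.09 and 0.604 for KO-Nut3.

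Pf4 and Ms4a7 departed from the other 4 in 1 mouse. Pf4 (chromosome 5, 90772435 to 90773383, plus strand), a chemokine best known from platelets, was at 0.0597, 0.158 and 1.91 CPM in WT-Veh and 0.0507, 0.695 and 0.168 in WT-Nut3, beside 0.619, 0.169 and 0.570 for KO-Veh and 0.998, 1.26 and 0.220 for KO-Nut3. Its highest library was thus WT-Veh RH15, with 37 reads (1.34 to 2.63 CPM by the exact 95% Poisson interval, which covers counting error only). Ms4a7 (chromosome 19, 11321039 to 11336146, minus strand), a membrane protein of the MS4A family, was also highest there. It was at 0.179, 0.525 and 0.979 CPM in WT-Veh and 0.101, 0.596 and 0.168 in WT-Nut3, beside 0.310, 0.395 and 0.285 for KO-Veh and 0.610, 0.917 and 0.165 for KO-Nut3. WT-Veh RH15 also had the highest summed level of monocyte and neutrophil markers, 11.9 CPM (S100a9 3.55, Mmp8 2.52 and Chil3 2.16), against 8.04 in KO-Nut3 RH6 and at most 1.76 in the other 10. The part of such cells in the Pf4 and Ms4a7 values was not tested.

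**Figure D3:**
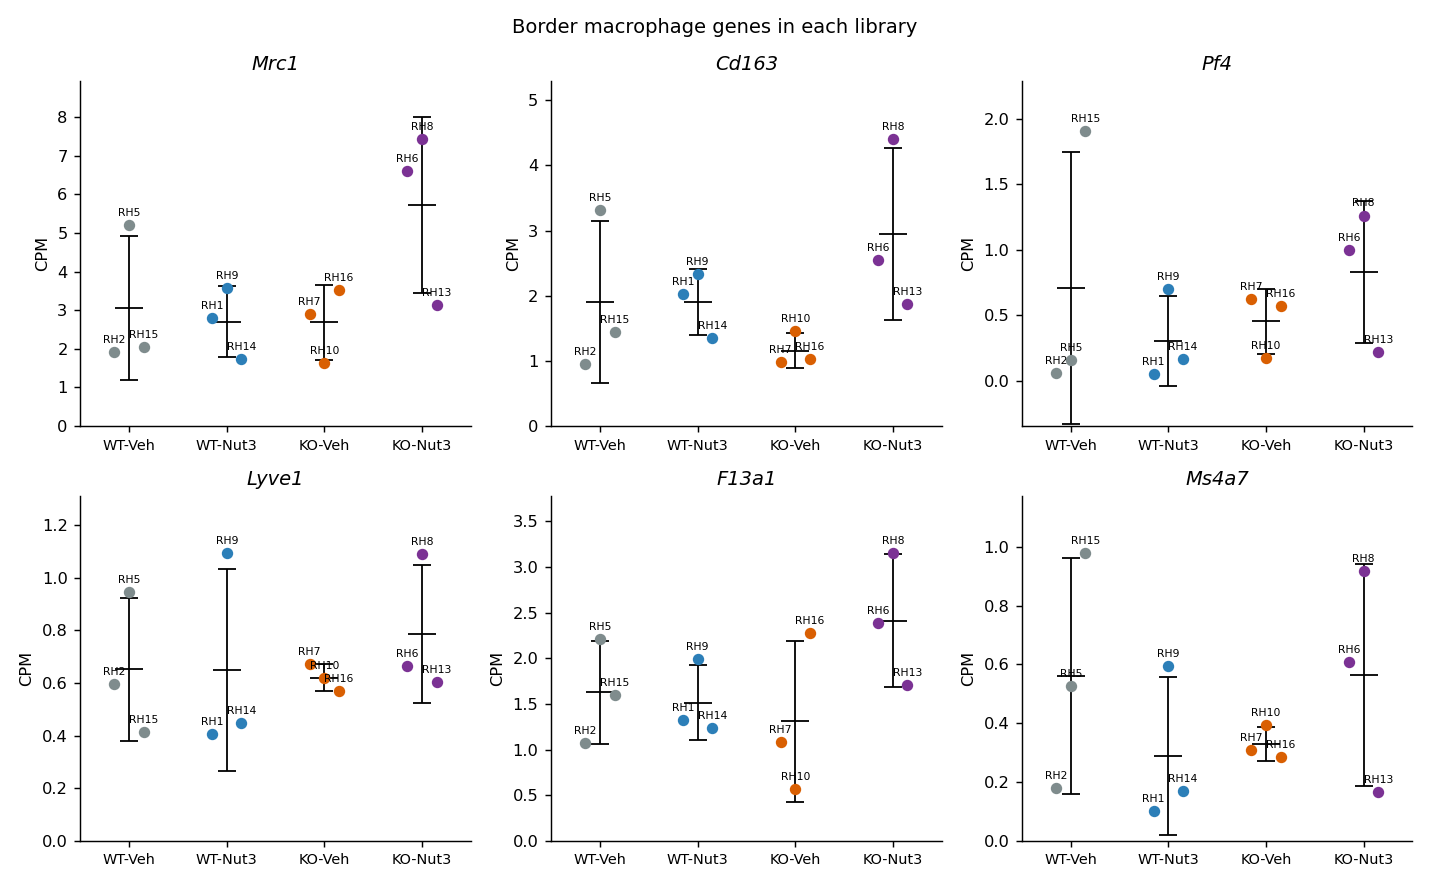
Level in CPM (y axis) of the 6 border macrophage genes in each library, grouped on the x axis and marked by animal, with the mean and SD (n = 3) as lines. KO-Nut3 RH8 and RH6 are high for Mrc1 and F13a1, WT-Veh RH5 stands out for Mrc1 and Cd163, and WT-Veh RH15 for Pf4 and Ms4a7.

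Summed over the 6 genes, the level was 4.78, 12.3 and 8.40 CPM in WT-Veh and 6.69, 10.3 and 5.10 in WT-Nut3, beside 6.56, 4.85 and 8.26 for KO-Veh and 13.8, 18.3 and 7.69 for KO-Nut3. The means were 8.51 ± 3.78, 7.36 ± 2.65, 6.55 ± 1.71 and 13.3 ± 5.31 CPM. As a share of the summed level of all 36 genes, they made up 0.816% (WT-Veh RH2) to 3.12% (KO-Nut3 RH8).

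Markers of other tissues at the border of the hippocampus also varied between mice. The summed level of 18 meningeal fibroblast markers (Dcn the most abundant, with 28.7% of the sum) was 90.0, 261 and 130 CPM in WT-Veh and 112, 159 and 72.1 in WT-Nut3, beside 114, 115 and 124 for KO-Veh and 194, 344 and 163 for KO-Nut3. KO-Nut3 RH8, KO-Nut3 RH6 and WT-Veh RH5 had the 3 highest sums of both lists. Choroid plexus epithelium followed another set of mice. The sum of its 15 markers (Ttr 57.7% of it) was 7156 CPM in KO-Nut3 RH13, 6694 in WT-Nut3 RH9, 5179 in KO-Nut3 RH6, 671 in KO-Nut3 RH8 and between 155 and 223 in the other 8. None of the markers of fibroblasts was at 0 in any library, while Kcnj13 and Steap1 of the choroid plexus list were at 0 in some. Summed endothelial markers (Flt1 the most abundant) ran from 213 to 274 CPM, and the 3 KO-Nut3 sums (254, 274 and 266 CPM) lay above the 3 KO-Veh sums (235, 213 and 241 CPM). In that comparison 5 of 8 endothelial markers had an unadjusted p under 0.05, against 7.6% of all genes, with a median log2 fold change of 0.24 and none called. The 9 monocyte and neutrophil markers tested had a median of 2.54 there, also with none called. Their sum was 8.04 CPM in KO-Nut3 RH6, against 1.32 and 1.76 in KO-Nut3 RH8 and RH13. Each of these 9 was at 0 in at least 1 library, so their medians here and below rest on few reads. Of the fibroblast markers 16 of 18 had an unadjusted p under 0.05 there, with a median of 1.38 and 2 called. For the choroid plexus markers it was 15 of 15, with a median of 4.71 and 4 called. Of 10 lymphocyte markers, 7 (Cd3e, Cd3d, Cd3g, Cd8a, Ms4a1 and Nkg7 among them) did not exceed the count minimum, and neither did Ly6g and Retnlg of neutrophils. Summed blood markers, of which Hbb-bs was the most abundant, ran from 42.2 to 84.7 CPM, those of astrocytes (Slc1a2 the most abundant) from 3996 to 4990 CPM and those of oligodendrocytes (Mbp the most abundant) from 3577 to 6106 CPM. The part of these cells and tissues in the levels of border macrophage genes was not tested.

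**Figure D4:**
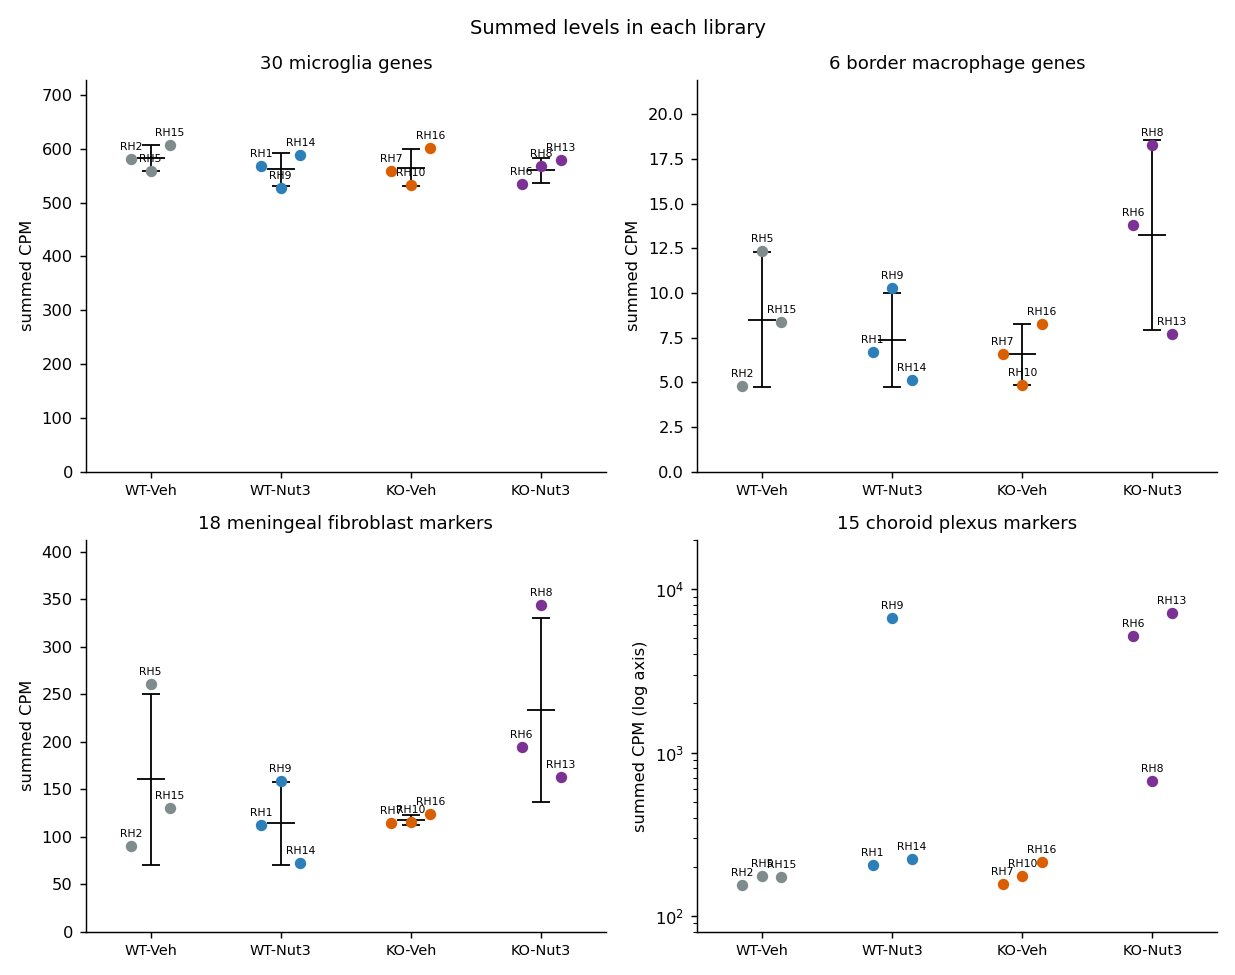
Summed CPM (y axis; log scale in the choroid plexus panel) of the 30 microglia genes, the 6 border macrophage genes, 18 meningeal fibroblast markers and 15 choroid plexus markers in each library, by group and animal, with mean and SD (n = 3) on the linear panels. Microglia sums stay between 528 and 607 CPM, border macrophage and fibroblast sums peak in KO-Nut3 RH8, and choroid plexus sums are 5179 CPM or more in 3 libraries.

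The effect of Fmr1 loss without drug was read from KO-Veh against WT-Veh. None of the 36 genes passed the test (edgeR quasi-likelihood, Benjamini-Hochberg adjusted p under 0.05 over all genes), where 4 of 22592 genes, or 0.0177%, did. Of the microglia genes, 13 of 30 had a positive log2 fold change, and their median was -0.04, against -0.0043 for all genes tested. Ctss, at 46.9, 46.6 and 52.0 CPM in WT-Veh and 56.8, 53.9 and 56.9 in KO-Veh, gave a log2 fold change of 0.20 ± 0.07 (SE, unadjusted p = 0.00845, adjusted p = 0.610). Mpeg1, a pore-forming protein of phagosomes, gave 0.22 ± 0.09 (adjusted p = 0.646), and Lgmn gave -0.16 ± 0.06 (adjusted p = 0.631). Cx3cr1 gave -0.24 ± 0.10 (adjusted p = 0.664), which became -0.12 without KO-Veh RH10, and P2ry13 -0.33 ± 0.14 (adjusted p = 0.673). In all 5 of 36 genes, against 7.2% of all genes, had an unadjusted p under 0.05. The libraries of the groups did not overlap for Ctss and Mpeg1, which were above in every KO-Veh library, as 5.9% of all genes were, and for Gpr34 and Lgmn, which were below, as 6.46% were. Of the marker lists of other cells, 1 gene was called, Wfs1 of hippocampal neurons, which fell by 0.44 on the log2 scale (adjusted p = 0.0478). All 6 border macrophage genes had negative estimates, from -0.07 for Lyve1 to -0.78 for Ms4a7, with 95% intervals that all spanned 0. Median estimates were also negative for meningeal fibroblast markers (-0.80, 1 of 18 positive) and endothelial markers (-0.24, 1 of 8 positive). That of monocyte and neutrophil markers was -2.25 (0 of 9 positive), while that of choroid plexus markers was 0.09 (12 of 15 positive). The summed monocyte and neutrophil markers were at 0.358, 1.37 and 11.9 CPM in WT-Veh RH2, RH5 and RH15. The part of these cells was not tested. Without WT-Veh RH15 the estimate for Pf4 turned from -0.66 to 1.97, and without WT-Veh RH5 that for Mrc1 turned from -0.19 to 0.43 and that for Lyve1 to 0.30, while Cd163 went from -0.73 to -0.06. F13a1 turned from -0.32 to 0.04 without KO-Veh RH10, and Ms4a7 went to -0.11 without WT-Veh RH15.

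The effect of Nutlin-3 in KO mice was read from KO-Nut3 against KO-Veh. Again 0 of the 36 genes passed the test, with 45 of 22592 genes (0.199%) called overall. The median over the 30 microglia genes was -0.04, with 12 positive, against 0.0034 for all genes, and each microglia gene except Tlr4 (0.60) and Tlr2 lay between -0.27 and 0.32. For these genes the half-width of the 95% interval had a median of 0.35. Fcrls, lower in every KO-Nut3 library (18.1 to 18.9 CPM) than in every KO-Veh library (20.2 to 24.5 CPM), gave -0.25 ± 0.10 (adjusted p = 0.619). Lgmn gave 0.28 ± 0.10 (adjusted p = 0.504), or 0.15 without KO-Nut3 RH6, and Fcrls was -0.15 without KO-Veh RH16. Spi1 was above in every KO-Nut3 library at 3.05 to 4.34 CPM against 2.79 to 2.99. With Cd163 and Lgmn this made 3 of 36 genes above in all libraries, against 7.85% of all genes, and Fcrls was the 1 gene below, against 5.44%.

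For the 6 border macrophage genes all estimates were positive and their median was 0.86. Meningeal fibroblast markers had a median of 1.38 there, with 17 of 18 positive. Choroid plexus markers had a median of 4.71, with 15 of 15 positive. An unadjusted p under 0.05 was given by 16 of 18 and 15 of 15 of them, against 7.6% of all genes. The part of these tissues was not tested. Cd163 gave a log2 fold change of 1.34 ± 0.36 (95% interval 0.54 to 2.14, unadjusted p = 0.00392, adjusted p = 0.268). Mrc1 gave 1.09 ± 0.36 (0.29 to 1.88, unadjusted p = 0.0125, adjusted p = 0.434). F13a1 gave 0.88 ± 0.45, Pf4 0.84 ± 0.65, Ms4a7 0.76 ± 0.61 and Lyve1 0.33 ± 0.39, all with intervals that included 0. Without KO-Nut3 RH8 the estimate for Cd163 was 0.93, and without KO-Veh RH10 that for Mrc1 was 0.83, the lowest values on leaving out 1 library. The other 4 stayed positive, but without KO-Nut3 RH8 Pf4 was 0.41, Ms4a7 0.22 and Lyve1 0.03, and without KO-Veh RH10 F13a1 was 0.52. When every gene with at least 1 count was kept in the fit, Cd163 (adjusted p = 0.0142) and Mrc1 (adjusted p = 0.0168) passed, in a fit that called 544 of 35930 genes (1.51%).

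**Figure D5:**
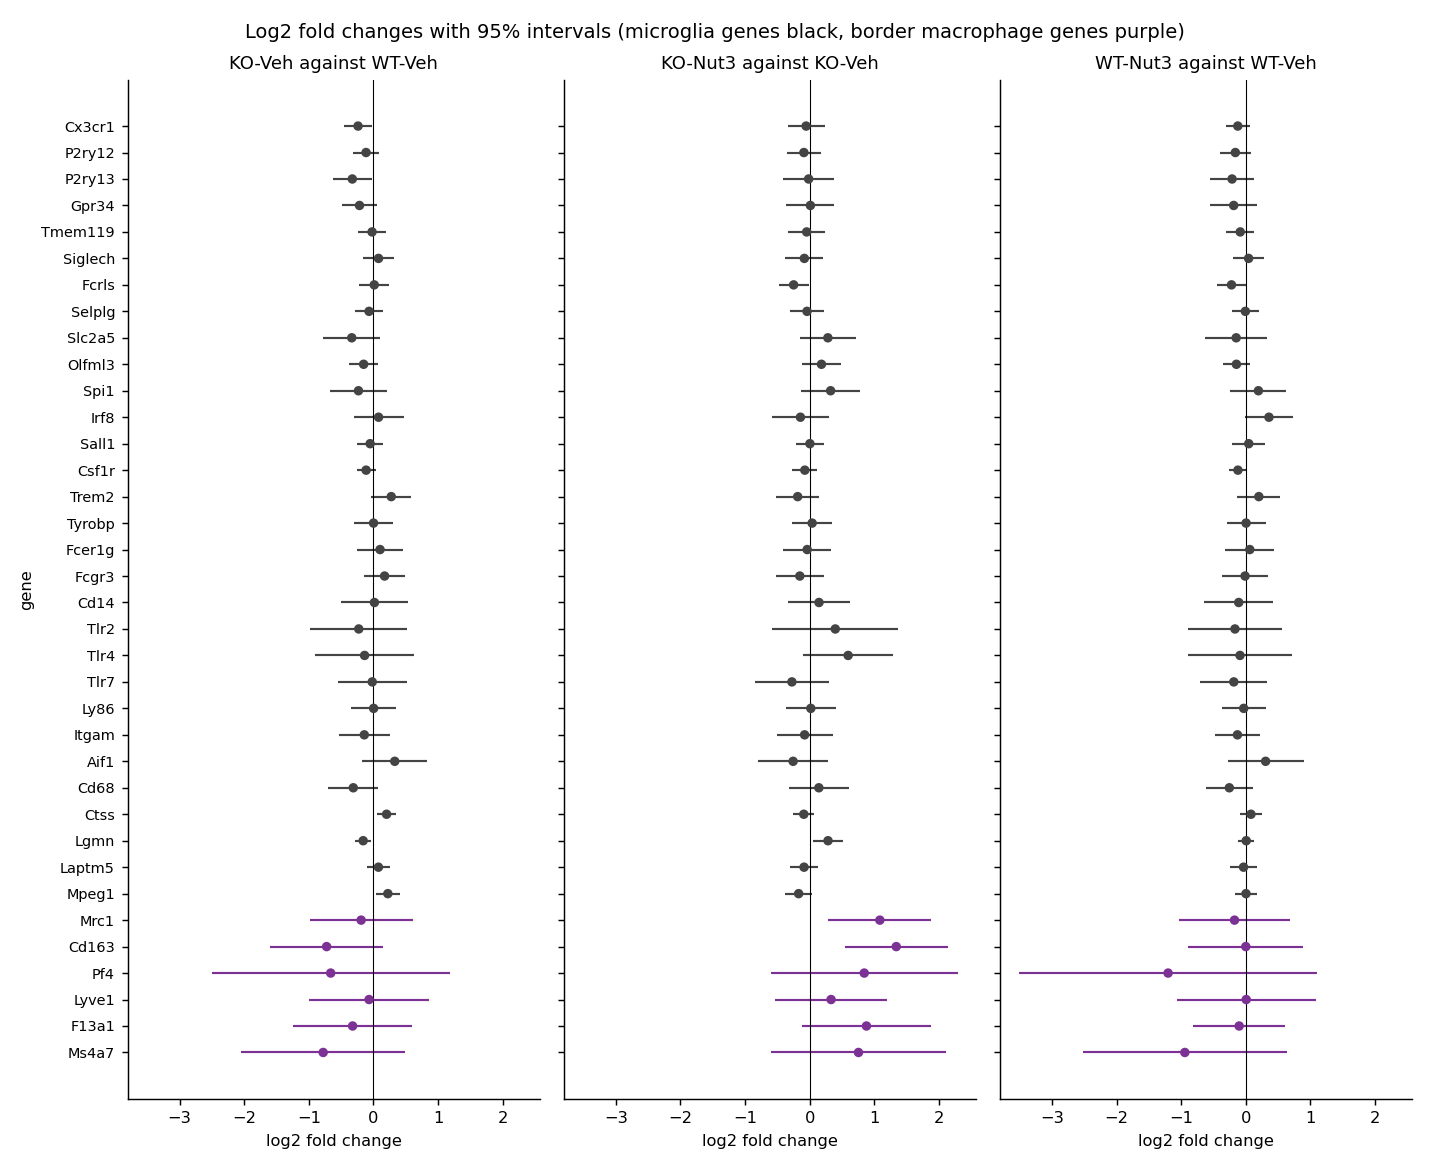
Log2 fold changes (x axis) with 95% intervals for the 36 genes (y axis) in 3 comparisons, microglia genes in black and border macrophage genes in purple. Most microglia genes lie close to 0 with short intervals, Tlr2 and Tlr4 having wider ones, and all 6 border macrophage genes are right of 0 in KO-Nut3 against KO-Veh, where the intervals of Mrc1 and Cd163 alone among the 6 do not reach 0.

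Beyond the 36, a list of 24 other border macrophage genes held 5 that rose in KO-Nut3 against KO-Veh and none that fell. Of all genes, 0.199% were called. Of the 24 estimates, 22 were positive, with a median of 1.06. The list was chosen with earlier results of these data known, so these shares are no test of it. None of the 24 was called in the other 6 comparisons as fitted here, although alternatives called up to 10 of them (in the interaction, with every gene with a count kept). In KO-Veh against WT-Veh their median was -0.43, with 4 of 24 positive, and in KO-Nut3 against WT-Nut3 it was 0.76, with 20 positive. These medians moved with single libraries, to -0.12 without WT-Veh RH5 and -0.73 without WT-Veh RH2 in the first, and to 0.44 without KO-Nut3 RH8 in the second. The 1.06 became 1.61 without KO-Veh RH7 and 0.875 without KO-Veh RH10, and 0.757 with the animal numbers as a block. The 5 genes that rose in KO-Nut3 against KO-Veh were Dab2, an endocytic adaptor, and 4 genes of antigen presentation by MHC class II. H2-Eb1, a class II beta chain, was at 0.568, 0.395 and 0.513 CPM in KO-Veh and 4.21, 3.49 and 2.75 in KO-Nut3 (log2 fold change 2.80 ± 0.30, adjusted p = 0.00925). Cd74, the class II invariant chain, rose from 1.08 ± 0.176 to 6.36 ± 2.04 CPM (2.55 ± 0.28, adjusted p = 0.0111). H2-Aa rose by 2.45 ± 0.29 (adjusted p = 0.0123) and H2-Ab1 by 2.29 ± 0.28 (adjusted p = 0.0130). Dab2 rose from 7.53 ± 0.795 to 21.5 ± 1.89 CPM (1.51 ± 0.12, adjusted p = 0.00159). WT-Veh RH5 lay within the KO-Nut3 range for H2-Eb1 (3.78 CPM), Cd74 (5.15 CPM) and H2-Ab1 (2.78 CPM). For H2-Aa it lay above every KO-Nut3 mouse, at 3.57 CPM against at most 3.38. WT-Nut3 RH9 had the most H2-Eb1 of all 12 libraries (4.42 CPM). In the same comparison Slc13a4 (2.74 ± 0.21, adjusted p = 0.00144) and Igf2 (2.75 ± 0.27, adjusted p = 0.00718) of the meningeal fibroblast list rose, as did Ttr, Slc4a5, Tmem72 and Folr1 of the choroid plexus list, of which Ttr gave 8.05 ± 0.99 (adjusted p = 0.0131). Dab2 is also made by fibroblasts, and the share of any cell type in these changes was not tested. On leaving out 1 library in turn, Dab2 was called in 6 of 6 fits and each class II gene in 3 of 6, being lost without any 1 of the KO-Veh mice (adjusted p up to 0.152 for H2-Ab1, without KO-Veh RH10), although the estimates over these fits stayed between 2.14 and 2.95. With the animal numbers as a block H2-Ab1 was not called (adjusted p = 0.0510), and none of the 24 was called when all 12 libraries shared 1 estimate of the spread.

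Nutlin-3 in WT mice, the comparison of WT-Nut3 against WT-Veh, called 0 of 36 members and 0 of 22592 genes (0.0%). At an unadjusted p under 0.05 stood 0 of 36 members and 717 genes, and DESeq2 also called 0 genes. The microglia median was -0.06, with 11 of 30 positive. Olfml3, Itgam and Csf1r were below in every WT-Nut3 library, as 3.92% of all genes were, and Irf8 was above, as 3.6% were. Csf1r, the most abundant of them, averaged 92.0 ± 5.30 CPM with vehicle and 84.3 ± 5.05 with Nutlin-3. Border macrophage estimates ran from -1.20 for Pf4 to 0.01 for Lyve1, and that for Pf4 became 1.42 without WT-Veh RH15. Without WT-Veh RH5, Mrc1 turned from -0.18 to 0.45 and F13a1 from -0.10 to 0.18, and Cd163 became 0.66. Without WT-Nut3 RH9, Lyve1 became -0.60 and Ms4a7 went from -0.94 to -2.04. Meningeal fibroblast markers had a median of -0.54, with 1 of 18 positive. Choroid plexus markers had a median of 4.57, with WT-Nut3 RH9 alone high. Monocyte and neutrophil markers had a median of -2.03, with 1 of 9 positive and the highest sum in WT-Veh RH15. The part of these cells and tissues was not tested.

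Between the genotypes after Nutlin-3 (KO-Nut3 against WT-Nut3), 0 of 36 members passed, with 1 of 22592 genes (0.00443%), Fmr1 itself, called. The microglia median was -0.0052, with 15 of 30 positive. Irf8, at 3.99 to 5.60 CPM in KO-Nut3 and 6.34 to 7.005 in WT-Nut3, gave -0.42 ± 0.17 (unadjusted p = 0.0382, adjusted p = 0.928). It was the 1 member below in every KO-Nut3 library, as 5.35% of all genes were. Cd14, the co-receptor for lipopolysaccharide, was the 1 member above, as 5.3% were. All 6 border macrophage genes had positive estimates, with a median of 0.79, and Mrc1 gave 1.07 ± 0.36 (unadjusted p = 0.0152, adjusted p = 0.928). Meningeal fibroblast markers had a median of 1.35, with 18 of 18 positive. Of these, 15 had an unadjusted p under 0.05, against 4.87% of all genes. The medians were 0.89 for choroid plexus markers (15 of 15 positive) and 1.95 for monocyte and neutrophil markers (8 of 9 positive). The part of these cells and tissues was not tested. Without KO-Nut3 RH8 Lyve1 turned from 0.26 to -0.04, Cd163 went from 0.62 to 0.21 and Ms4a7 from 0.92 to 0.40. This comparison shares the KO-Nut3 libraries with that against KO-Veh.

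With all 12 libraries in an additive fit, 6 against 6, the intervals were tighter. For KO against WT, 0 of 36 members and 1 of 22592 genes (0.00443%) passed. The 3 of 36 members with an unadjusted p under 0.05, a share near the 8.16% of all genes, gave -0.20 ± 0.08 for Cx3cr1 (adjusted p = 0.538), 0.14 ± 0.06 for Mpeg1 and 0.12 ± 0.05 for Ctss. The median half-width of the 95% interval was 0.23 for the microglia genes and 0.69 for the border macrophage genes. For Nut3 against Veh, 0 of 36 members and 0 of 22592 genes (0.0%) passed, while DESeq2 called 79 genes and 1647 had an unadjusted p under 0.05. Fcrls gave -0.24 ± 0.07 (unadjusted p = 0.00412, adjusted p = 0.340). It was at 22.5, 19.2 and 23.1 CPM in WT-Veh and 20.6, 20.2 and 24.5 in KO-Veh, against 19.8, 17.2 and 18.4 in WT-Nut3 and 18.1, 18.9 and 18.1 in KO-Nut3. Only WT-Veh RH5 among the vehicle mice lay below any Nutlin-3 mouse, which was WT-Nut3 RH1.

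The interaction, the difference between KO and WT mice in their change with Nutlin-3, called 0 of 36 members and 0 of 22592 genes (0.0%), with 942 genes at an unadjusted p under 0.05 and 1 called by DESeq2. All 6 border macrophage estimates were positive, with a median of 1.31, beside 0.05 for the microglia genes and 0.0075 for all genes. Some lists of other cells also had positive medians, with none called. Meningeal fibroblast markers had a median of 2.04, with 17 of 18 positive. Of these 18, 15 had an unadjusted p under 0.05, against 4.17% of all genes. Monocyte and neutrophil markers had a median of 4.21, with 8 of 9 positive and the highest sum in WT-Veh RH15. The part of these cells was not tested. Cd163 gave 1.35 ± 0.60 (95% interval 0.06 to 2.63, adjusted p = 0.994) and Mrc1 1.27 ± 0.60 (-0.01 to 2.54, adjusted p = 0.994). Without WT-Veh RH5 they were 0.68 and 0.64. Not all 6 stayed positive on leaving out 1 library, since Pf4 turned from 2.05 to -0.57 without WT-Veh RH15 and Lyve1 from 0.33 to -0.05 without WT-Veh RH5. With every gene with a count kept, 1 of 36 members (Mrc1, adjusted p = 0.0385) and 291 of 35930 genes (0.81%) were called.

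Further lists of genes tied to microglia gave no call in the 7 comparisons as fitted here, where at most 0.199% of all genes were called. This covered 34 other microglia genes, 15 ligands and survival factors, 24 disease-associated microglia genes and 15 inflammatory cytokine and chemokine genes that were tested. Alternatives are not reported for these lists. In KO-Nut3 against KO-Veh their median log2 fold changes were -0.02, 0.04, 0.14 and 0.03. Cst3, which encodes cystatin C, and Mef2c, a transcription factor that neurons also express, were the most abundant of the other microglia genes, and Cst3 was at 1203 CPM in WT-Veh RH15 and 1224 in KO-Veh RH16 against 870 to 951 elsewhere. Of the ligands, Cx3cl1, the neuronal ligand of Cx3cr1, averaged 537 ± 3.91 CPM in KO-Veh and 478 ± 44.4 in KO-Nut3 (-0.17 ± 0.08, adjusted p = 0.656), with 427 CPM in KO-Nut3 RH6 against 508 and 499 in the other KO-Nut3 mice. KO-Nut3 RH6 also had the lowest sum of hippocampal neuron markers (3281 CPM), whose part in this value was not tested. Sirpa and Cd47, a receptor and ligand that restrain phagocytosis, came next in abundance. Tgfbr2, a receptor for the TGF-beta that microglia depend on, came closest to a call of these lists, at 0.58 ± 0.09 in KO-Nut3 against KO-Veh (adjusted p = 0.0545). It measured 16.1, 16.2 and 18.6 CPM in KO-Veh and 25.9, 24.6 and 25.8 in KO-Nut3, with all 6 WT libraries between 19.5 and 22.9. Endothelial cells express Tgfbr2 as well.

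Of the disease-associated genes, Apoe, Ctsb and Timp2 were the most abundant, all of which other brain cells also express, and none passed. In KO-Nut3 against KO-Veh, 7 of 24 had an unadjusted p under 0.05, against 7.6% of all genes, with a smallest adjusted p of 0.105, that of the tetraspanin Cd63. Cd63 and the protease Ctsd were highest in the 3 libraries with the most choroid plexus markers, at 74.9, 67.2 and 67.0 CPM of Cd63 in KO-Nut3 RH6, KO-Nut3 RH13 and WT-Nut3 RH9, against at most 52.2 elsewhere, and the part of that tissue was not tested. Markers of the activated state differed in level. Clec7a ran from 0.113 to 0.630 CPM, while Gpnmb ran from 3.11 to 10.5 CPM. Spp1, which other cells also express, was highest in KO-Nut3 RH8 (16.7 CPM), KO-Nut3 RH6 (9.98) and WT-Veh RH5 (9.72), and Lyz2 was highest in WT-Veh RH15 (21.3 CPM). Of the inflammatory genes, Ptgs2, which neurons also express, Nfkbia and Il18 led. Tnf, Il6 and Il10 did not exceed the count minimum, with Il10 at 0 in all 12 libraries. Il1rn (1.49 CPM) and Ccl2 (1.185 CPM) were highest in WT-Veh RH15, the mouse with the highest Pf4.

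Within groups, levels of the border macrophage genes were more alike to each other than to those of the microglia genes. Over the 12 libraries, the Pearson correlation of log2 CPM deviations from group means had a median of 0.50 over the 15 pairs of border macrophage genes, all positive. It was 0.15 over the 435 pairs of microglia genes and -0.09 over the 180 mixed pairs. These values share libraries and scaling and are descriptions. The most alike pair was Tmem119 and Fcgr3, an activating Fc receptor (r = 0.95), followed by Csf1r and Cx3cr1 (r = 0.94). Pf4 was most like Ms4a7 (r = 0.84), and Mrc1 was like F13a1 (r = 0.82). Among the microglia genes, the highest median r with the border macrophage genes was that of Tlr4, whose median r was 0.69 with the border macrophage genes and -0.16 with the other microglia genes, and whose closest gene was Mrc1 (r = 0.90). Cd14 was most like Pf4 (r = 0.82) and Tlr7 most like Ms4a7 (r = 0.67). Tlr4 was at 1.13, 2.42 and 1.03 CPM in WT-Veh and 1.12, 1.84 and 1.35 in WT-Nut3, beside 1.39, 1.07 and 1.71 for KO-Veh and 2.44, 2.46 and 1.43 for KO-Nut3. Its 3 highest libraries were KO-Nut3 RH8, KO-Nut3 RH6 and WT-Veh RH5, as for Mrc1.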

How the data were processed

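Poly(A) RNA was sequenced from the hippocampus of 12 mice, 3 in each group. The labels give each library its own RH number, read here as an animal number, and the methods describe 3 biological replicates per condition. Per the labels and methods, the authors aligned reads to mm10 with STAR, and the deposited counts are reads per gene without regard to strand. The labels and methods differ on read layout (single or paired). Each library held 17150820 to 20040482 gene reads, and intervals on counts cover counting error only. Genes with over 20 counts in total were tested with edgeR 4.0.16 (quasi-likelihood, TMM, two-sided, Benjamini-Hochberg over 22592 genes), fitting the 6 libraries of a pair alone and the additive and interaction fits on 12. DESeq2 1.42.0, other filters, scalings and leaving out each library were alternatives. Intervals are the estimate plus or minus t times its SE, at 95%. Exon lengths are from GENCODE M21. Correlations used log2 CPM with a prior count of 1. A series table with 12 columns that name no sample was not used. Members and lists were chosen with earlier results of these data known. Named genes were most members, Fmr1, the list genes called as fitted here, some of the most abundant genes of the lists and some markers at 0. Others were chosen after their values were seen. Some listed genes are not reported here. Animal numbers up to RH8 or from RH9 served as a block, since they may mark a batch.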

Additional observations from a re-analysis of the deposited data

How the results depend on the processing

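No member was called in any of the 7 comparisons under any alternative, with 1 exception: keeping every gene with a count called 2 members (Cd163 and Mrc1) in KO-Nut3 against KO-Veh and 1 (Mrc1, adjusted p = 0.0385) in the interaction. Of 3813 member estimates under alternatives, 288 turned sign, none of them called.

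The number of genes called depended on the setting. In KO-Veh against WT-Veh it was 4, and became 22 with DESeq2, 272 with every gene with a count, 21 with the animal-number block and 1 when the 12 libraries shared a fit. In KO-Nut3 against KO-Veh it was 45, and became 245, 544, 20 and 0 under the same 4 settings. In WT-Nut3 against WT-Veh it rose from 0 to 249 with every gene and 11 with the block. In KO-Nut3 against WT-Nut3 it rose from 1 to 7 with DESeq2 and 38 with every gene. For KO against WT it rose from 1 to 43, 239 and 10 with DESeq2, every gene and the block, for Nut3 against Veh from 0 to 79, 539 and 3, and for the interaction from 0 to 1 and 291 with the first 2. On leaving out 1 library in turn the counts ran from 2 to 11 in KO-Veh against WT-Veh, 6 to 266 in KO-Nut3 against KO-Veh (highest without KO-Nut3 RH8, 6 or 7 without any 1 KO-Veh mouse), 0 to 1 in WT-Nut3 against WT-Veh, 0 to 7 in KO-Nut3 against WT-Nut3, 1 to 10 for KO against WT, 0 to 19 for Nut3 against Veh and 0 to 1 for the interaction. The cause was not tested.

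The count of other border macrophage genes that rose in KO-Nut3 against KO-Veh, an alternative added after seeing the data, ran from 1 to 6 on leaving out 1 library, and was 8 with DESeq2, 9 with every gene, 4 with the block (without H2-Ab1) and 0 when the 12 libraries shared a fit. In the other comparisons, where none of the 24 was called, every gene with a count called 4 lower in KO-Veh against WT-Veh, 1 lower in WT-Nut3 against WT-Veh, and 2, 6 and 10 higher in KO-Nut3 against WT-Nut3, Nut3 against Veh and the interaction. Leaving out WT-Veh RH2 called Cd74 lower in KO-Veh against WT-Veh, and leaving out WT-Nut3 RH9 called Dab2 and H2-Aa higher in KO-Nut3 against WT-Nut3. No paired analysis was possible because the groups share no replicate numbers. With the block, the estimate for Mrc1 in KO-Nut3 against KO-Veh was 0.79 and that for Cd163 1.185. The border macrophage genes had 8.08 to 65.2 counts per library on average and a median CV of 53.5%, where counting error alone would give 23.0%.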
